A study of Mus musculus with 8 samples.

Results

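Expression of 10 glycolysis enzymes (Hk1, Hk2, Pfkp, Aldoa, Tpi1, Gapdh, Pgk1, Eno1, Pkm and Ldha) was examined in mouse brain after stroke with restraint stress. The enzymes were chosen by name, and a match on the gene symbol of protein-coding genes gave 11 entries of the 54532 in the first count table and of the 28229 in the second, since Aldoa is listed under a second identifier; no enzyme was missing. The RNA-seq data comprised 8 libraries of C57BL/6 mice on Day 21, with 2 libraries in each of 4 groups. In the first table, the PTS + RS group had a photothrombotic stroke (a light-induced cortical infarct) plus restraint stress (daily confinement in a tube), the RS group had restraint stress alone, and all 4 libraries carry the label cortex. In the second table all mice had PTS + RS and received either RGFP109 or the vehicle, labelled NaCl. RGFP109, labelled HDAC3 inhibitor, was given once a day at 60 mg/kg. Replicate 1 of both groups is labelled cortex and replicate 2 amygdala, so that tissue and replicate number cannot be told apart. Both experiments lack an unstressed group and a stroke group without restraint. The methods give an age of about 3 months for mice in a behavioural test but none for the mice sequenced, and do not state whether a library came from 1 mouse or from a pool, so that p-values measure the spread between these libraries only.

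Glycolysis splits glucose into pyruvate in the cytosol. Hexokinases phosphorylate glucose, phosphofructokinase commits the sugar to the pathway, aldolase cleaves it, triosephosphate isomerase interconverts the products, and Gapdh, Pgk1, enolase and pyruvate kinase carry the later steps, which yield ATP and NADH. Lactate dehydrogenase reduces pyruvate to lactate and restores NAD+. In brain, Hk1 is the principal hexokinase of neurons, Hk2 is the isoform induced by hypoxia and in activated or proliferating cells, and Hk3 is found mainly in myeloid cells. Several steps have sister isoforms with different cell preferences, such as Aldoc in astrocytes and Eno2 in neurons.

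The hexokinase promoters are shown first, because the hexokinases gave the largest difference among the enzymes. Each run holds 250 bases before and 50 bases after a RefSeq transcription start on GRCm38.p6, on the gene's own strand, from 5′ to 3′, and all 3 genes lie on the minus strand. Capitals mark ACGTG or GCGTG, the cores of the hypoxia response element on either strand; the reverse complements CACGT and CACGC are therefore also in capitals, and neighbouring matches can overlap. The Hk2 window lies at chr6:82774405-82774704, the windows of the 2 listed Hk1 starts at chr10:62379859-62380158 and chr10:62340372-62340671, and that of Hk3 at chr13:55021336-55021635.
Hk2: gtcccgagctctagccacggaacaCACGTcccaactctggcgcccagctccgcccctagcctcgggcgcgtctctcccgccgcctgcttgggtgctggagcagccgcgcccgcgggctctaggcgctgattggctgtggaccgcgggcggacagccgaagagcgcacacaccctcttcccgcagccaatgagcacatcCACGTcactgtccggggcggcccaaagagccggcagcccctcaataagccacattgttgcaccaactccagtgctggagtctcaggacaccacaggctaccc
Hk1, start 1: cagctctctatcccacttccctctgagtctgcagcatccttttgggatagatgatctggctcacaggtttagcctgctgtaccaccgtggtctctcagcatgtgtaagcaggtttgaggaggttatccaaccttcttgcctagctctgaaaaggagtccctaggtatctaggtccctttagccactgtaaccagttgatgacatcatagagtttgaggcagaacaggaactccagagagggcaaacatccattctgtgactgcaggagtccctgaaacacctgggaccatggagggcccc
Hk1, start 2: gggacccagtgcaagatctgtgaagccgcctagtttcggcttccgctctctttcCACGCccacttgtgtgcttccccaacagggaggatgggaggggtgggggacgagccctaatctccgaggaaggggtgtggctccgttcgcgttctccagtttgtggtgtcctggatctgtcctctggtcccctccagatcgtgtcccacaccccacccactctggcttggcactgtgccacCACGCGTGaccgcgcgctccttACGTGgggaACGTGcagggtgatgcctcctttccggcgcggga
Hk3: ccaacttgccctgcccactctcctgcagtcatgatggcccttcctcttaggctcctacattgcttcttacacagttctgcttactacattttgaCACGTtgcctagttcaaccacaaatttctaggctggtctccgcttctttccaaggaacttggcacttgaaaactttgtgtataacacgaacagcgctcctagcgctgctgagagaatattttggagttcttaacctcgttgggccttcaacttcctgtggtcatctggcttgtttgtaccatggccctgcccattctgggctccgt
Hk2 held 2 matches to ACGTG, both on the opposite strand, and Hk3 held 1. The first Hk1 window, at the 5′ end of the gene as deposited, held no match. The second Hk1 window held 2 matches to ACGTG and 3 to GCGTG. Matches to these short motifs are common: of 32851 promoters of this length, 19.6% held ACGTG, 32.4% held GCGTG and 43.8% held either, so that the matches are a description of the letters only.

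Total counts ran from 15902013 to 21712033 per library, and the 10 enzymes took between 0.44% and 0.525% of them. Counting error relative to the level is largest for the enzymes with the fewest counts, Hk2 (53 to 264) and Gapdh (179 to 2165). Every other enzyme had at least 2669 counts in each library. The libraries of the second table were not alike in tissue. The NaCl replicate 1 library, labelled cortex, had a summed level of 10 olfactory bulb markers of 2878 CPM (counts scaled to a common library size), against 225 to 316 in the other 7 libraries, and the lowest level of 10 cerebral cortex markers, 1119 CPM. Both amygdala-labelled libraries carried striatal markers at 1370 and 1508 CPM, against 176 to 259 elsewhere, and more of the cortex markers (2552 and 2418 CPM) than any cortex-labelled library. The summed level of 10 amygdala markers in the amygdala-labelled libraries, 454 CPM in each, lay inside the range of the cortex-labelled libraries, 390 to 579 CPM. The 10 choroid plexus markers summed to 2214 CPM in RGFP109 replicate 1. They summed to 223 CPM in RGFP109 replicate 2 and to 182 and 201 CPM in NaCl replicates 1 and 2. None of the cortex, amygdala, striatum or olfactory bulb markers was at 0 in any library. Enzyme results that rest on these libraries are therefore also given within each replicate number or with 1 library left out.

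Levels of the enzymes can be compared with each other only per transcript length, in FPKM as deposited. Aldoa, the aldolase of muscle and brain, was the most expressed enzyme, with a lowest, median and highest value over the 8 libraries of 430, 522 and 562 FPKM. Pkm, pyruvate kinase, followed with 179, 215 and 240 FPKM. Both were above the next enzyme in every library. Triosephosphate isomerase (Tpi1, median 151 FPKM), phosphoglycerate kinase (Pgk1, 148 FPKM) and enolase 1 (Eno1, 133 FPKM) came next, and their ranges overlapped (122 to 175, 117 to 155 and 126 to 145 FPKM). Eno1 exceeded Ldha, lactate dehydrogenase A, in every library (Ldha median 68.7, range 45.3 to 82.9 FPKM). Ldha in turn exceeded Hk1 (median 43.5, range 34.7 to 54.0 FPKM) and Pfkp, the platelet-type phosphofructokinase (median 21.0, range 17.2 to 40.0 FPKM), in every library. Hk1 exceeded Pfkp in every library except NaCl replicate 1 (34.7 against 40.0 FPKM). Hk2 was lowest, with 0.499, 1.21 and 2.63 FPKM. The second Aldoa entry, a separate gene model upstream of the main one, stayed between 32 and 53 counts and is not counted among the 10.

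**Figure D1:**
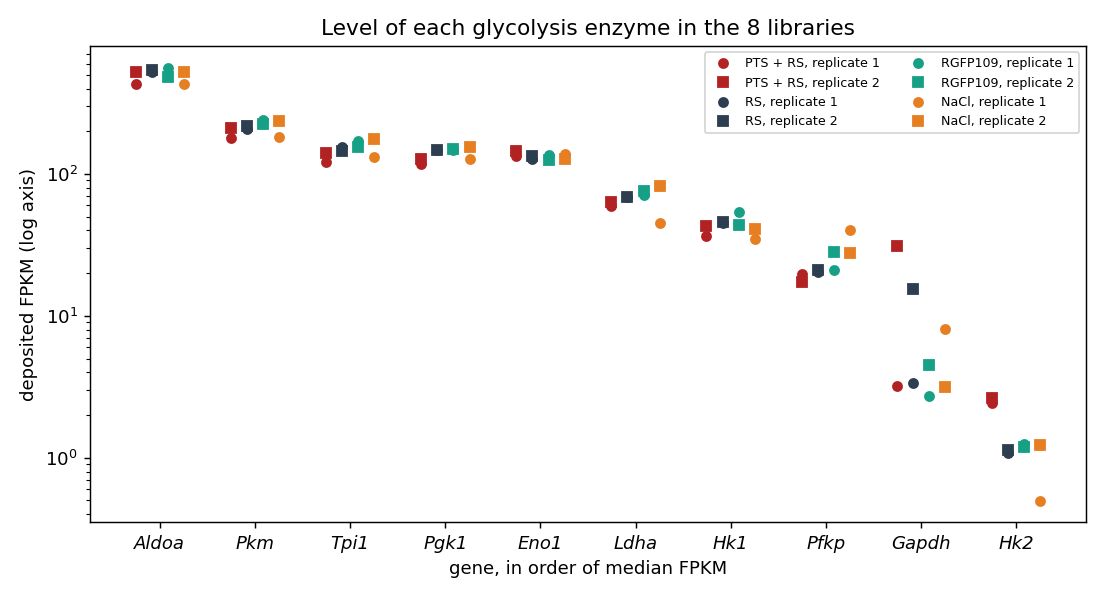
Deposited FPKM (log axis) of each of the 10 enzymes in each of the 8 libraries; colours mark the 4 groups, circles replicate 1 and squares replicate 2. Aldoa lies between 430 and 562 FPKM and Hk2 between 0.499 and 2.63 FPKM, while Gapdh spreads from 2.74 to 31.2 FPKM between libraries.

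Gapdh stood outside this order. Its median was 3.96 FPKM and its range 2.74 to 31.2 FPKM, although its neighbours in the pathway, Tpi1 and Pgk1, were at 117 FPKM or more in every library. Its counts were 230 and 2165 for PTS + RS, 255 and 1021 for RS, 179 and 400 for RGFP109, and 598 and 242 for NaCl. The highest CPM was 11.4 times the lowest, against 5.24 times for Hk2, 2.34 for Pfkp, 1.81 for Ldha and 1.16 for Eno1. Of the 100-base windows of its messenger RNA, 85.8% also occurred letter for letter in other annotated genes, and 73 similar entries, 70 of them pseudogenes, were in the count table with 439 to 811 counts per library together. Gapdh also overlaps Iffo1 on the other strand, which had up to 1504 counts. Windows shared with other genes made up 67.0% for Pgk1 and 43.6% for Eno1, whose levels nevertheless varied little (highest to lowest CPM 1.32 and 1.16). Pkm shared 9.82%, Ldha 1.32% and Tpi1 0.796%, and Hk1, Hk2, Pfkp and Aldoa shared none. How reads matching several genes were counted is not given in the sources used here, and the part of shared sequence in the Gapdh values was not tested, so Gapdh, Pgk1 and Eno1 are reported as uncertain.

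**Figure D2:**
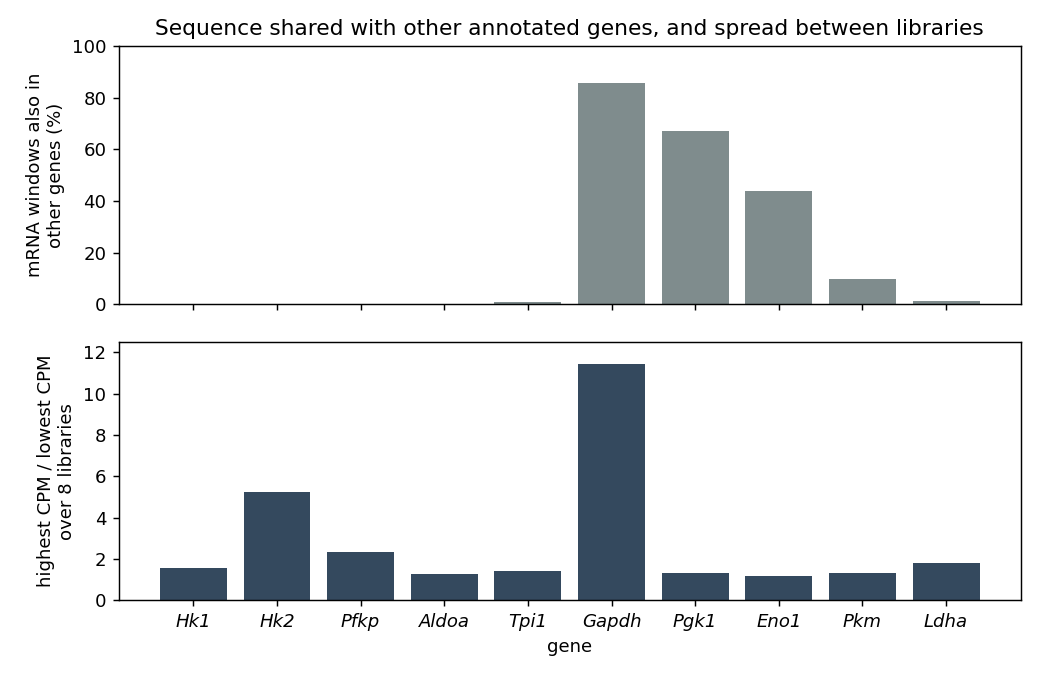
For each enzyme, the upper bars give the percentage of 100-base messenger RNA windows that also occur in other annotated genes, and the lower bars the ratio of the highest to the lowest CPM over the 8 libraries. Gapdh is highest in both (85.8% and 11.4), whereas Pgk1 shares 67.0% of its windows and has a ratio of 1.32, and Hk2 shares none and has a ratio of 5.24.

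The comparison of PTS + RS with RS asks how damaged cortex of stressed stroke mice differs from cortex of mice with stress alone. Hexokinase 2 was 2.28-fold higher in PTS + RS, and it was the single enzyme of the 10 called by edgeR at an adjusted p under 0.05. Among all 17581 genes tested, 3.55% were called in either direction, 2.96% higher and 0.586% lower. When the log2 fold change also had to reach 1 or -1, Hk2 was again the single enzyme, and 2.12% of all genes were called higher and 0.091% lower. Of the other enzymes, Eno1 (0.10) and Gapdh (0.87) had log2 fold changes above 0 and were not called, and the rest lay between -0.27 and -0.13: 7 of 10 were lower by sign, against 50.3% of all genes, with a median of -0.15 against -0.0015 over all genes. In 6 enzymes both PTS + RS libraries lay below both RS libraries, as in 24.5% of all genes, and in 2, Hk2 and Eno1, both lay above, as in 25.7%. No enzyme was called lower. The exact permutation test on any single enzyme with 2 libraries a side cannot go below p = 0.333, so the calls rest on the model fitted across all genes.

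At the entry step the 3 hexokinases did not move together. Hk2 (chromosome 6, 82725025 to 82774454), whose promoter is printed above, measured 14.5 and 15.8 CPM in the PTS + RS libraries and 6.51 and 6.82 CPM in the RS libraries. Both PTS + RS values were above both RS values, with counts of 249 and 264 against 118 and 108, and the replicates of a group lay close together. Its log2 fold change was 1.19 with a standard error (SE) of 0.16 and an adjusted p of 0.00954 in edgeR. It stayed between 1.12 and 1.24 with any 1 library left out. Hk2 was called under every alternative that kept all libraries, but narrowly in limma on FPKM (adjusted p = 0.0476 and 0.0438 with pseudocounts of 0.1 and 1). Hk3 (chromosome 13), the myeloid hexokinase, measured 7.53 and 5.51 against 2.10 and 1.83 CPM. It was 3.31-fold higher, with a log2 fold change of 1.72 (SE 0.27, adjusted p = 0.0187, edgeR), but missed the threshold in limma on FPKM (adjusted p = 0.0503 and 0.053 with pseudocounts of 0.1 and 1). Hk1 (chromosome 10, 62268855 to 62379908), the neuronal hexokinase, measured 314 and 369 against 389 and 395 CPM. Both PTS + RS values were below both RS values, but the log2 fold change of -0.20 (SE 0.10) was not called (adjusted p = 0.344, edgeR). Per length, Hk2 made up 6.21% and 5.77% of the sum of Hk1 and Hk2 in PTS + RS and 2.34% and 2.41% in RS. Hk1 thus remained the main form in every library.

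Markers of other cells moved in the same comparison. All 12 microglia markers were called higher, with a median log2 fold change of 2.35, and their summed level was 1631 and 1397 CPM in PTS + RS against 356 and 323 CPM in RS, with none at 0. Of 10 astrocyte markers 5 were called higher (median 0.48), and their sums were 7512 and 6210 against 4155 and 4195 CPM. None of 12 neuron markers was called, and their sums, 9849 and 11630 against 11350 and 11250 CPM, overlapped. None of 8 endothelial markers was called either, all of them higher by sign (median 0.24). None of 10 oligodendrocyte markers was called, with 9 higher by sign (median 0.22) and 8 of them with both PTS + RS values above both RS values, and their sums were 6918 and 7737 against 6228 and 5662 CPM. The 8 neutrophil and monocyte markers summed to 0.505 to 2.10 CPM in these 4 libraries, with 1 to 4 of them at 0. In whole tissue, fewer cells of a type and less RNA per cell cannot be told apart, and the part of these markers in the hexokinase values was not tested.

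**Figure D3:**
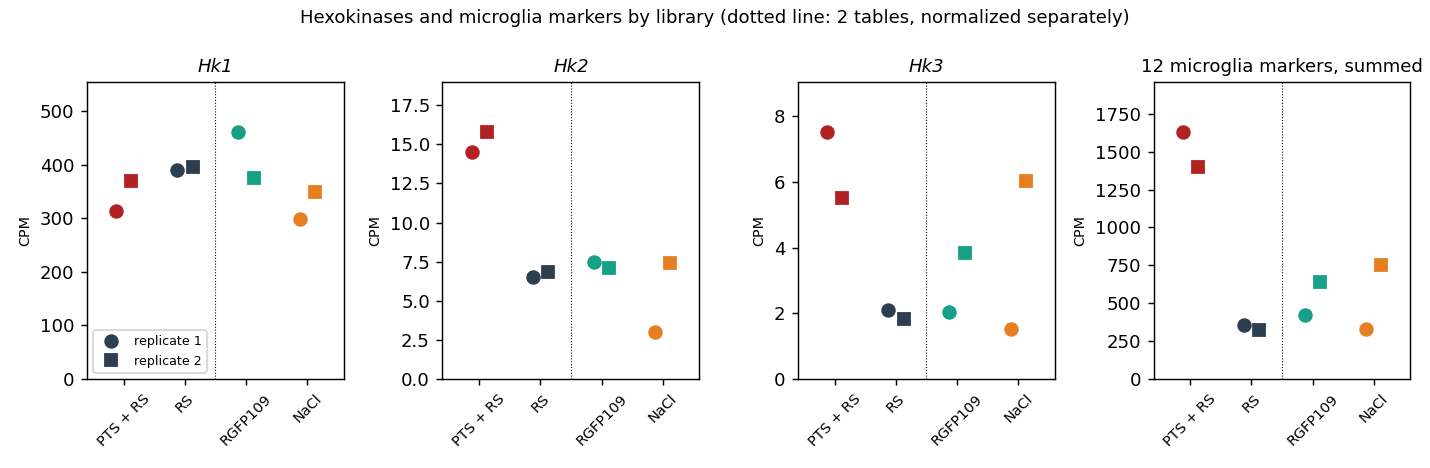
CPM of Hk1, Hk2, Hk3 and the sum of 12 microglia markers in each library, by group (circles replicate 1, squares replicate 2; vertical axes start at 0; the dotted line separates the 2 tables). Both PTS + RS libraries are highest for Hk2 (14.5 and 15.8 CPM) and for the microglia sum (1631 and 1397 CPM), while Hk1 is not higher there than in RS, and Hk3 in NaCl replicate 2 (6.04 CPM) lies between the PTS + RS libraries.

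The committing step and the cleavage of the sugar showed small differences. Pfkp (chromosome 13, 6579768 to 6648777) measured 269 and 232 CPM in PTS + RS against 275 and 281 CPM in RS. Its log2 fold change of -0.15 (SE 0.09) was not called (adjusted p = 0.437, edgeR). The muscle isoform Pfkm was level, at 308 and 323 against 322 and 324 CPM, and the liver isoform Pfkl had -0.37 (SE 0.14, adjusted p = 0.235). Pfkfb3, which makes the allosteric activator of phosphofructokinase, was called higher, at 55.2 and 62.3 against 37.7 and 41.8 CPM. Its log2 fold change was 0.56 (SE 0.10, adjusted p = 0.0349, edgeR), and the call was lost with either RS library left out and in limma on FPKM (adjusted p from 0.0747 to 0.215 in these 4 fits). Aldoa (chromosome 7, 126795234 to 126800751) measured 1271 and 1524 against 1530 and 1576 CPM. The low value is that of replicate 1, replicate 2 being close to an RS library, and the log2 fold change was -0.15 (SE 0.12, adjusted p = 0.558). The astrocyte isoform Aldoc measured 632 and 735 against 613 and 600 CPM (log2 fold change 0.17, SE 0.10, adjusted p = 0.435), and its share of both aldolases was 30.7% and 30.1% in PTS + RS against 26.3% and 25.4% in RS. Tpi1 (chromosome 6, 124810586 to 124814296) measured 339 and 392 against 432 and 404 CPM, with a log2 fold change of -0.19 (SE 0.10, adjusted p = 0.357).

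The steps from glyceraldehyde 3-phosphate to pyruvate held no call, and the 2 replicates of Gapdh differed too much for it to be read. Gapdh (chromosome 6, 125161715 to 125166467) measured 13.4 and 130 CPM in PTS + RS and 14.1 and 64.4 CPM in RS. Replicate 1 of either group was low and replicate 2 high, so that the groups overlapped completely and the log2 fold change of 0.87 had an SE of 0.96 (adjusted p = 0.698, edgeR). It ran from -1.54 without PTS + RS replicate 2 to 2.34 without RS replicate 2. Pgk1 (chromosome X, 106187100 to 106203699), which makes ATP, measured 265 and 288 against 332 and 333 CPM. The groups were apart, with a log2 fold change of -0.27 (SE 0.08) at an unadjusted p of 0.0115 and an adjusted p of 0.137. At an unadjusted p under 0.05, 2 of the 10 enzymes (Hk2 and Pgk1) and 17.9% of all genes passed. Eno1 (chromosome 4, 150236721 to 150248879) measured 721 and 781 against 685 and 718 CPM (log2 fold change 0.10, SE 0.09, adjusted p = 0.638). Its neuronal sister Eno2 measured 648 and 705 against 788 and 770 CPM (-0.20, SE 0.09, adjusted p = 0.306). Eno2 made up 50.7% and 50.8% of both enolases in PTS + RS and 56.8% and 55.1% in RS.

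Pyruvate kinase and lactate dehydrogenase close the pathway. Pkm (chromosome 9, 59656368 to 59679375) measured 906 and 1059 CPM in PTS + RS against 1050 and 1102 CPM in RS, and the groups overlapped (log2 fold change -0.13, SE 0.11, adjusted p = 0.591). Ldha (chromosome 7, 46841475 to 46855627) measured 198 and 210 against 229 and 228 CPM. Both PTS + RS values were lower, but the log2 fold change of -0.16 (SE 0.07) was not called (adjusted p = 0.308, edgeR). Ldhb, the heart-type subunit that favours pyruvate formation, measured 299 and 254 against 260 and 276 CPM. Ldha made up 23.9% and 28.2% of both subunits in PTS + RS and 29.4% and 28.2% in RS.

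Hk2, Eno1 and Gapdh were lower in PTS + RS replicate 1 than in replicate 2, and Pfkp was lower in replicate 2. The remaining enzymes, Hk1, Aldoa, Tpi1, Pgk1, Pkm and Ldha, were each lower in replicate 1 as well. Without PTS + RS replicate 2, these 6 enzymes were called lower and Hk2 higher, with a median of -0.27, but 14.6% of all genes were then called, 7.69% higher and 6.96% lower. Without PTS + RS replicate 1, Hk2 and Gapdh were called higher and Pfkp (-0.26) and Pgk1 (-0.21) lower, Ldha kept a log2 fold change of -0.12 and Hk1, Aldoa, Tpi1 and Pkm came to between -0.095 and -0.024, the median was -0.059, and 9.7% of all genes were called, 5.58% higher and 4.13% lower. The fits with 1 PTS + RS library assume that it varies like the RS libraries. Choroid plexus markers differed between these libraries as well, with sums of 2541 and 226 CPM in PTS + RS replicates 1 and 2 and of 2772 and 5577 CPM in RS, and their part in the enzyme values was not tested. The summed level of the 10 enzymes was 4309 and 5001 CPM in PTS + RS and 4942 and 5109 CPM in RS.

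**Figure D4:**
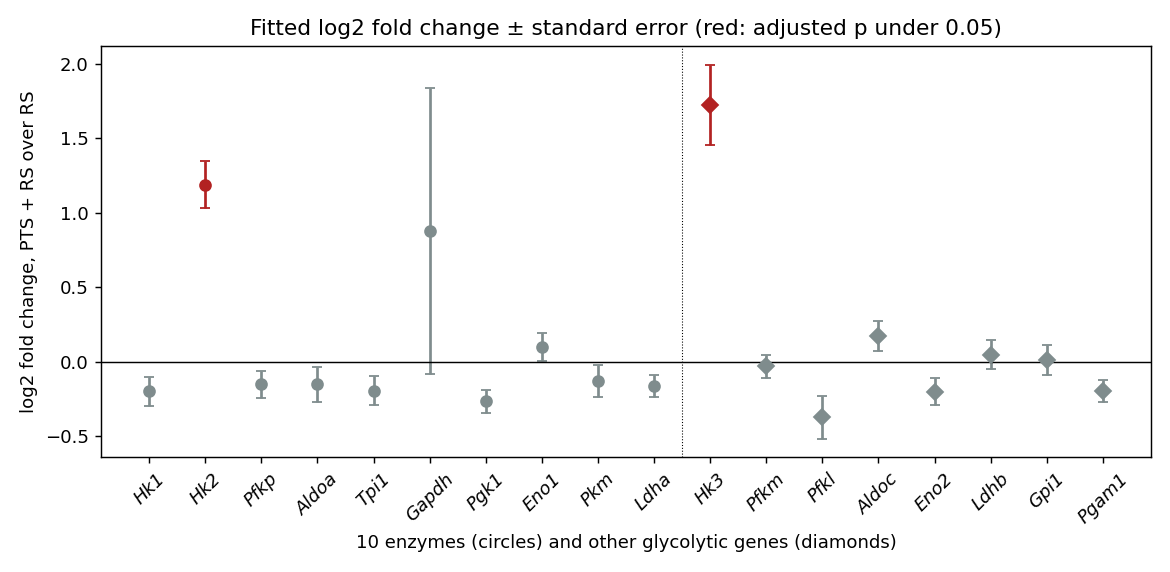
Log2 fold change of PTS + RS over RS with its standard error for the 10 enzymes (circles) and 8 other glycolytic genes (diamonds); red marks an adjusted p under 0.05 in edgeR. Hk2 (1.19) and Hk3 (1.72) are the red points, the error bar of Gapdh (SE 0.96) is the widest, and 7 of the 10 enzymes lie between -0.27 and -0.13.

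Among the genes around glycolysis, 3 of the 98 tested in 9 pathway lists were called in PTS + RS against RS (3.06%), close to the 3.55% of all genes. Of 19 other glycolytic genes 16 were tested, and Hk3 was called higher and none lower. Glucose phosphate isomerase (Gpi1) and phosphoglycerate mutase (Pgam1), which carry the 2 steps not covered by the 10 enzymes, had log2 fold changes of 0.012 (SE 0.10) and -0.20 (SE 0.07), neither called. Of the 5 enzymes that set the level of the phosphofructokinase activator, Pfkfb3 was called higher. None of 10 glucose and lactate transporters was called; the blood-brain barrier glucose transporter Slc2a1 measured 80.1 and 87.1 against 70.9 and 79.9 CPM, and the lactate exporter Slc16a3 5.78 and 6.46 against 4.03 and 3.34 CPM (log2 fold change 0.73, SE 0.22, adjusted p = 0.148). None of 14 genes of pyruvate entry into mitochondria, 16 of the tricarboxylic acid cycle, 8 of the pentose phosphate pathway, 11 of glycogen metabolism and 3 tested of 7 of gluconeogenesis was called; at an unadjusted p under 0.05 they numbered 2, 3, 2, 1 and 1, and over all 9 lists 20 of 98 (20.4%) passed, against 17.9% of all genes. By sign, 12 of the 16 tricarboxylic acid cycle genes were lower, against 50.3% of all genes, and 10 to 12 were with any 1 library left out. Of the 8 pentose phosphate genes 7 were higher (5 to 7 with 1 library left out), and of the 11 glycogen genes 9 (7 to 9). Of 15 hypoxia-inducible factors and targets, 9 were higher by sign (7 to 9 with 1 library left out) and 6 lower. In edgeR 4 of them passed at an unadjusted p under 0.05. The single call of this list was Vegfa, the endothelial growth factor, which was lower, at 67.5 and 73.1 against 90.8 and 95.8 CPM. Its log2 fold change was -0.41 (SE 0.08, adjusted p = 0.0453, edgeR), a call that was lost in limma-voom, in limma on FPKM and with either RS library left out (adjusted p from 0.0552 to 0.369 in these 5 fits). Hif1a itself measured 97.0 and 76.2 against 72.4 and 67.6 CPM (log2 fold change 0.31, SE 0.12, adjusted p = 0.248).

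The comparison of RGFP109 with NaCl asks what this inhibitor, which the paper describes as selective for HDAC1 and HDAC3, changes in PTS + RS mice. None of the 10 enzymes was called, nor was any of the 17565 genes tested by edgeR (0.0%). Each group held a cortex-labelled and an amygdala-labelled library, and the fit had no block. The spread within a group, and each SE given for this comparison, therefore includes any difference between the labelled tissues. The absence of calls does not show that RGFP109 changed nothing. At an unadjusted p under 0.05, 206 genes (1.17%) and none of the enzymes passed. DESeq2, both limma methods, the unfiltered fit and the other size factors called no enzyme either. By sign 7 enzymes were higher and 3 lower, with a median log2 fold change of 0.099 against -0.016 over all genes. In 9 enzymes the groups overlapped, and Hk1 was the exception, as were 12.8% of all genes in that direction.

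Hk2 measured 7.48 and 7.10 CPM with RGFP109 and 3.02 and 7.39 CPM with NaCl, with an SE of 0.49 on a log2 fold change of 0.49 (adjusted p = 1.00, edgeR). The low value belonged to NaCl replicate 1, the library with olfactory bulb markers, and the other 3 ran from 7.10 to 7.48 CPM. All 4 libraries came from PTS + RS mice, but they differ from the first table's PTS + RS libraries in labelled tissue, tissue markers or treatment. The Hk2 values of the 4 lay nearer to the RS libraries (6.51 and 6.82 CPM) than to the PTS + RS libraries (14.5 and 15.8 CPM) of the first table. That table was normalized separately, and the 4 libraries are no repeat of its comparison. The microglia marker sums of the 4 were 423 and 642 CPM with RGFP109 and 330 and 754 CPM with NaCl. They were 1631 and 1397 CPM in the PTS + RS libraries of the first table. Hk1 measured 461 and 375 against 299 and 348 CPM (log2 fold change 0.37, SE 0.21, adjusted p = 1.00). Pfkp measured 284 and 376 against 543 and 371 CPM (-0.47, SE 0.28), and Ldha 236 and 252 against 152 and 275 CPM (0.19, SE 0.32). NaCl replicate 1 gave the lowest value of the 4 libraries for Hk1 and Ldha and the highest for Pfkp. Gapdh measured 11.3 and 18.7 against 34.0 and 13.2 CPM (-0.65, SE 0.52).

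The remaining enzymes differed by less than their SE. Aldoa measured 1638 and 1395 against 1267 and 1530 CPM, and Tpi1 469 and 428 against 364 and 484 CPM. Pgk1 measured 333 and 337 against 292 and 349 CPM, and Pkm 1204 and 1127 against 927 and 1188 CPM. In these 4 the NaCl values lay on both sides of at least 1 RGFP109 value, with replicate 1 the lowest of the 4 libraries. Eno1 was the steadiest, at 734 and 676 against 751 and 683 CPM (log2 fold change -0.025, SE 0.20). Among isoforms, Ldhb measured 273 and 343 against 536 and 395 CPM (-0.60, SE 0.25, adjusted p = 1.00), and Ldha made up 11.8% of both subunits in NaCl replicate 1 against 23.9% to 29.4% in the other 7 libraries. Pfkp made up 23.9% of the 3 phosphofructokinases in that library against 11.5% to 16.4% elsewhere. No gene of the 9 pathway lists was called.

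Within each replicate number, the RGFP109 over NaCl ratios pointed in opposite directions for 8 of the 10 enzymes, as for 51.3% of all genes. In replicate 1 the log2 ratio of CPM was 1.28 for Hk2, 0.64 for Ldha, 0.62 for Hk1 and -0.94 for Pfkp. In replicate 2 the same enzymes had -0.057, -0.13, 0.11 and 0.020. Apart from Gapdh (0.50), no enzyme in replicate 2 departed from 0 by more than 0.18. Hk1 was higher with RGFP109 and Eno1 lower in both replicates. Without NaCl replicate 1 the median over the enzymes was -0.030, and without NaCl replicate 2 it was 0.29, with 93 genes and no enzyme called.

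**Figure D5:**
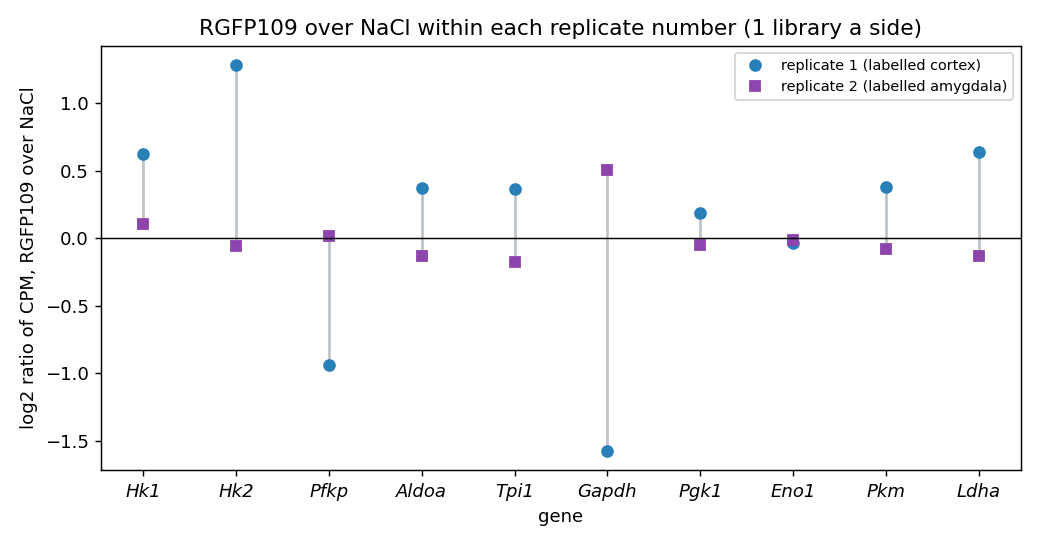
Log2 ratio of CPM, RGFP109 over NaCl, for each enzyme within replicate 1 (circles, cortex-labelled) and replicate 2 (squares, amygdala-labelled), 1 library a side. Replicate 1 ranges from -1.57 (Gapdh) to 1.28 (Hk2), and in replicate 2 all enzymes except Gapdh (0.50) lie within 0.18 of 0.

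The amygdala-labelled libraries were set against the cortex-labelled libraries of the second table, each side with 1 RGFP109 and 1 NaCl library. No enzyme was called, nor any of 17565 genes in edgeR (0.0%), while 1970 genes (11.2%) and no enzyme passed at an unadjusted p under 0.05, and DESeq2 called 416 genes and no enzyme. The median log2 fold change of the enzymes was 0.064 against -0.029 over all genes. Ldha measured 252 and 275 CPM in the amygdala-labelled and 236 and 152 CPM in the cortex-labelled libraries (log2 fold change 0.44, SE 0.25, adjusted p = 0.592), and 0.17 to 0.80 with 1 library left out. Ldha and Pgk1 were higher with no overlap, as were 21.6% of all genes, and Eno1 was lower with no overlap, as were 22.4%. Eno1 measured 676 and 683 CPM against 734 and 751 CPM (-0.13, SE 0.16, adjusted p = 0.819). With 1 library left out the log2 fold change ran from 0.058 to 0.24 for Pgk1 and from -0.14 to -0.096 for Eno1. Outside the 10, Hk3 measured 3.83 and 6.04 against 2.03 and 1.54 CPM (log2 fold change 1.47, SE 0.37, adjusted p = 0.325, and 1.12 to 1.76 with 1 library left out). Leaving out RGFP109 replicate 1 gave 6 enzymes and 5383 genes (28.7%) called, and leaving out NaCl replicate 1 gave 1 enzyme, Pfkp, with a log2 fold change of 0.41 in place of -0.15, and 2565 genes (13.8%). These fits hold 1 cortex-labelled library, which is assumed to vary like the amygdala-labelled ones.

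Across the 8 libraries, each centred within its table, the mean log2 CPM of the 10 enzymes was most like that of Map3k4 (Pearson r = 0.976), Nup50 (0.969), Tyms (0.967), Taf1c (0.948) and Aptx (0.946), among tested protein-coding genes outside the 10. Gapdh dominated this mean (r = 0.744), and with Gapdh left out, a choice made after seeing the data, 5 other genes came closest: Islr2 (0.992), Mpnd (0.991), Spns2 (0.991), Ttll11 (0.989) and Lrfn2 (0.988). Against the mean without Gapdh, Ldha (0.914) and Pkm (0.914) followed most closely and Pfkp ran the other way (-0.868). The 8 points share depth, tissue makeup and table, and these values describe likeness only.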

How the data were processed

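RNA-seq of 8 mouse brain libraries was analysed. By the study's methods and processing notes, the authors aligned reads to GRCm38 with STAR 2.4.0 and counted reads per gene with HTSeq 0.6.1; the deposited counts are not normalized, and the deposited FPKM values are scaled by gene length and depth by the authors. The methods name limma and RefSeq genes, whereas the tables list Ensembl identifiers or symbols; they name another library kit than the labels do, and the counting strand is not given in the sources used here, so overlapping genes on opposite strands may share reads. The tables also hold the authors' fold changes, p-values, group means and normalized columns (8 per library), which were not used. All 28229 genes of the second table were matched to the first.

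Groups were compared 2 against 2, with no replicate block, by edgeR 4.0.16 (quasi-likelihood test, filterByExpr, TMM, Benjamini-Hochberg over all tested genes, 17581 or 17565) in R 4.3.3, a gene being called at an adjusted p under 0.05. Counting error only is covered by the depth. Tests of the model were run on simulated counts with the same spread for every gene and comparison and no tissue differences. They do not show how the tests behave on these libraries. Alternatives were DESeq2 1.42.0, limma 3.58.1 (voom, or log2 of FPKM plus 0.1 or 1), other size factors, no filter, a replicate block, treatment as a term and each library left out. CPM are counts over TMM-scaled library sizes; a prior count of 2 entered log2 ratios of 1 library to another. Shared sequence was searched in GENCODE M21 transcripts in 100-base windows; similar genes had at least 95% identity over 500 bases. Named genes were the 10 enzymes, 8 sister or missing-step genes, called genes of the pathway lists (at most 4 per list, comparison and direction) and the 5 genes most like the enzymes' mean. Slc2a1, Slc16a3, Hif1a and the 5 genes without Gapdh were chosen after their values were seen. Vegfa in RGFP109 against NaCl was also named outside these rules. Enzymes and lists were chosen with earlier results of these data known. No protein sequence was used.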

Additional observations from a re-analysis of the deposited data

Results flagged for a closer look

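For 8 of the 10 enzymes the ratio of RGFP109 to NaCl pointed one way in replicate 1 (cortex-labelled) and the other way in replicate 2 (amygdala-labelled), which was the reason for a closer look. With 1 library a side the difference was not tested, and 51.3% of all genes did the same. The log2 ratios in replicates 1 and 2 were 1.281 and -0.057 for Hk2, -0.935 and 0.02 for Pfkp, and 0.37 and -0.133 for Aldoa. Those of Tpi1 were 0.365 and -0.177, and those of Gapdh -1.574 and 0.503. Pgk1 gave 0.19 and -0.051, Pkm 0.377 and -0.076, and Ldha 0.637 and -0.128. NaCl replicate 1 is the library with 2878 CPM of olfactory bulb markers against 225 to 316 CPM in the other 7. RGFP109 replicate 1 had 2214 CPM of choroid plexus markers, against 182 to 223 CPM in RGFP109 replicate 2 and both NaCl libraries. The part of either library in these ratios was not tested.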

How the results depend on the processing

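In PTS + RS against RS, the direction and side of the threshold held for 109 of 120 values of single enzymes under the alternatives; 10 passed the threshold newly and 1 turned. The count of enzymes called was 1 to 7 and their median log2 fold change -0.27 to -0.059 with 1 library left out, and genes called 371 to 2691. Limma on FPKM plus 0.1 or 1 called 384 and 372 genes, and the unfiltered fit 1835 genes and 2 enzymes (Hk2 and Gapdh). Leaving out libraries turned Gapdh (-1.54 to 2.34), Ldhb (-0.079 to 0.16) and Gpi1 (-0.11 to 0.12). The cause was not tested.

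In RGFP109 against NaCl, 110 of 120 enzyme values held and 10 turned, none passing the threshold. Leaving out libraries gave 0 to 93 genes called, a median of -0.030 to 0.29, and turned Hk2 (-0.027 to 1.28), Aldoa (-0.019 to 0.27), Tpi1 (-0.12 to 0.31), Gapdh (-1.16 to 0.19), Pgk1 (-0.067 to 0.21), Eno1 (-0.082 to 0.038), Pkm (-0.034 to 0.34), Ldha (-0.18 to 0.70), Aldoc (-0.084 to 0.35), Hk3 (-1.04 to 0.95) and Gpi1 (-0.038 to 0.26).

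In amygdala-labelled against cortex-labelled libraries, 105 of 120 held, 6 passed newly and 9 turned. DESeq2 called 416 genes, library totals and both FPKM fits 1 each and the unfiltered fit 13; with library totals Aldoa was -0.010 and Pgam1 -0.0040. Leaving out libraries gave 0 to 6 enzymes, 0 to 5383 genes and a median of -0.030 to 0.26, and turned Hk1 (-0.34 to 0.28), Hk2 (-0.034 to 1.27), Pfkp (-0.53 to 0.41), Pfkl (-0.56 to 0.41), Aldoa (-0.15 to 0.21), Aldoc (-0.0060 to 0.36), Tpi1 (-0.027 to 0.33), Gapdh (-1.09 to 0.51), Eno2 (-0.14 to 0.065), Pkm (-0.045 to 0.32), Ldhb (-0.54 to 0.45) and Pgam1 (-0.070 to 0.13).

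The replicate numbers were not shown to pair samples in PTS + RS and RS, where the correlation of deviations was 0.035 with 2 pairs. In RGFP109 and NaCl the replicate number is also the labelled tissue, so same-numbered libraries share that label. The correlation there was 0.30 with 2 pairs. With the replicate block, 1 enzyme (Hk2, adjusted p = 0.00757 in edgeR) and 915 genes were called in PTS + RS against RS, with a median of -0.16, and none in RGFP109 against NaCl, with a median of 0.11; it changed no enzyme's call. Without Gapdh, Pgk1 and Eno1, left out after seeing the data, the medians were -0.15, 0.14 and 0.12 in the 3 comparisons. The number of libraries, 2 a group, limits these results more than depth does, and Hk2, at 53 to 264 counts, is also limited by depth.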

Other observations

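In the amygdala-labelled against cortex-labelled libraries, genes of the tricarboxylic acid cycle were lower by sign in 15 of 16 cases (median log2 fold change -0.11) and genes of glycogen metabolism in 9 of 11 (median -0.20), against 53.3% of all genes, with none called by edgeR at an adjusted p under 0.05 and none at an unadjusted p under 0.05. With 1 library left out, 11 to 14 of the 16 (11 without either cortex-labelled library) and 7 to 10 of the 11 were lower, with medians from -0.15 to -0.097 and from -0.26 to -0.092. In RGFP109 against NaCl, 11 of 14 tested hypoxia-inducible factors and targets were lower by sign (median -0.14), against 52.6% of all genes, again with none called and none at an unadjusted p under 0.05. With 1 library left out this was 8 to 13 of 15, the lowest without NaCl replicate 2, with medians from -0.21 to -0.093. Vegfa measured 76.0 and 68.7 CPM with RGFP109 and 100.2 and 85.5 CPM with NaCl (log2 fold change -0.36, SE 0.17). It was not called, and both RGFP109 values were below both NaCl values, as in 13.8% of all genes. The lists in this paragraph are among the most one-sided by sign of the 9 pathway lists in each comparison. Other lists were mixed: genes of pyruvate entry into mitochondria numbered 7 higher and 7 lower in both comparisons.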
